A study of Mus musculus with 12 samples.

Results

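The genes described here take iron into red cell precursors, store it, release it and adjust their own mRNAs to its supply. Members were the array probes whose platform-annotation symbol was Tfrc, Tfr2, Slc11a2, Slc25a37, Steap3, Fth1, Ftl1, Slc40a1, Ireb2 or Aco1. They came to 22 of 45281 probes and 10 genes. Each of the 10 genes had a probe that passed the filter on dim signals, and the 10 genes are counted among 9388 tested in all.

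RNA came from bone marrow erythroblasts of mice on strain background 129, sorted for high CD71, the transferrin receptor protein, and for the erythroid surface protein Ter119. The knock-in mice carried cyclin E (T74A T393A), a form with substitutions at sites through which Fbw7, a ubiquitin ligase subunit, targets cyclin E for degradation. The controls were wild type littermates, and the labels used here give no age, sex, litter or number of animals. Illumina bead arrays were hybridised, 6 for each genotype. Arrays with adjacent numbers (1 and 2, 3 and 4, and so on to 11 and 12) were taken as duplicates of 1 sample and averaged, which gave 3 wild type samples (arrays 1 and 2, 7 and 8, 9 and 10) and 3 knock-in samples (arrays 3 and 4, 5 and 6, 11 and 12). The log2 differences between arrays of such a pair had an SD of 0.0933 to 0.139, against 0.30 to 0.447 between other arrays of a genotype. Whether each sample is a separate animal is not in the labels, and the p-values below reflect the spread among these samples alone, part of which may be technical.

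Between 15988 and 18227 probes per array were above the background limit. Defining markers of other marrow cells were measurable in the sorted material. In every sample the mean of the neutrophil markers was above that of the erythroid markers. These are different genes and probes, so the gap does not give a share of cells. Neutrophil markers (9 of 11 tested) had a mean log2 intensity of 13.81 to 14.35 in wild type and 13.70 to 14.31 in knock-in samples, and macrophage markers (12 of 13 tested) of 7.59 to 8.52 and 7.25 to 8.10. B lineage markers (8 of 11 tested) lay at 7.99 to 8.45 in wild type and at 7.33 to 7.48 in knock-in samples, without overlap. No marker of any list passed the main test. With the runs of 4 adjacent arrays as a term 5 of 70 did, against 0.937% of all genes, and all 5 were lower in knock-in. They were Cd79b, Blnk and Pou2af1 of the B lineage and Prss34 and Mcpt8 of mast cells and basophils, named after their values were seen (limma adjusted p 0.0267 to 0.0493). Of the erythroid markers 8 of 12 were tested, with a mean of 10.94 to 11.75 in wild type and 11.48 to 11.84 in knock-in samples. Of these 8 markers 7 were higher and 1 lower in knock-in, with a median log2 difference of 0.29. All 6 early erythroid and progenitor markers were lower. Over all 9388 genes 3903 were higher and 5485 lower. In a bulk sample, fewer cells of a type and less RNA per cell cannot be told apart.

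Erythroblasts take up more iron than other cells of the body because they make hemoglobin. Transferrin with its iron binds the transferrin receptor and is carried into endosomes, where a reductase converts the iron and a transporter moves it to the cytosol. From there iron goes to the mitochondria for heme and iron-sulfur clusters, to ferritin for storage, or out of the cell through ferroportin. Iron regulatory proteins bind stem-loops in several of these mRNAs when iron is scarce, which stabilises the mRNA of the transferrin receptor and holds back translation of the ferritin mRNAs. That last step changes the protein and need not change the mRNA level measured on an array.

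Promoter sequences from RefSeq (GRCm38.p6) were available for 7 of the 10 genes, in 14 windows of 250 bases before an annotated start. They are shown for the receptor genes Tfrc and Tfr2, whose log2 differences had opposite signs, and for the ferritin genes Fth1 and Ftl1, whose differences were alike. Capitals mark the searched letters, read on both strands: CCAAT, the core of the CCAAT box (ATTGG on the other strand), ACGTG, a core of hypoxia response elements, GATAA, a core of GATA factor sites, and TGACNNNGC, the core of antioxidant response elements. For genes with several annotated starts 1 window was chosen, before the most upstream start of Tfrc and Tfr2 and before the downstream start of Fth1. The windows not shown hold other letters. The other Tfrc window has ACGTG and no CCAAT. Of the other Tfr2 windows 1 has ACGTG and 1 has CCAAT with 2 GATAA, and the upstream Fth1 window has GATAA and no CCAAT. The motifs shown thus depend on the window and do not set these genes apart. No searched motifs overlap in these windows. The windows are chr16:32608646-32608895 (plus strand) for Tfrc, chr5:137569590-137569839 (plus strand) for Tfr2, chr19:9982396-9982645 (plus strand) for Fth1 and chr7:45459887-45460136 (minus strand) for Ftl1.
Tfrc: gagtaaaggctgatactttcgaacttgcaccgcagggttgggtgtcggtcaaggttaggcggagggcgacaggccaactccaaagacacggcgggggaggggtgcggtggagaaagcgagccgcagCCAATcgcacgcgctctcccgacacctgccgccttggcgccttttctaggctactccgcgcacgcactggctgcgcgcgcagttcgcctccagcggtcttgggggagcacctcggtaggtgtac
Tfr2: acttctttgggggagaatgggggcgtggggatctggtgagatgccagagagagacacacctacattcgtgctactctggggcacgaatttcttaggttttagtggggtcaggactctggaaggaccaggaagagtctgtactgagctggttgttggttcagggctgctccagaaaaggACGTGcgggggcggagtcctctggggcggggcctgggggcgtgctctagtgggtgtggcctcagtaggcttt
Fth1: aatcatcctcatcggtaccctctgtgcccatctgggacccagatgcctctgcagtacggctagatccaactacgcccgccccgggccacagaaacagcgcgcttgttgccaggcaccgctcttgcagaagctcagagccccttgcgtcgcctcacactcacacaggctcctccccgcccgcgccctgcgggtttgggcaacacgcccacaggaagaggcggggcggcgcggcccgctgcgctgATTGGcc
Ftl1: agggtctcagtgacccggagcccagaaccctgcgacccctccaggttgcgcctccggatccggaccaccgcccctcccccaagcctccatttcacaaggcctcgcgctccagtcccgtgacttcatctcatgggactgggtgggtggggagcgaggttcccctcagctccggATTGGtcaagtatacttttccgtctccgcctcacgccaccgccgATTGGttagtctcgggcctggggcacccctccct

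CCAAT was found in 5 of the 14 windows and in 33.8% of all 32851 windows, ACGTG in 3 and in 16.6%, GATAA in 4 and in 22.6%, and TGACNNNGC in 0 and in 10.2%. In the windows shown, the CCAAT letters begin 124 bases before the start in Tfrc, 7 bases before it in Fth1, and 78 and 34 bases before it in Ftl1. The ACGTG of Tfr2 begins 72 bases before the start. These matches describe the letters only.

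The comparison asked whether mRNAs of iron handling differ between erythroblasts with the cyclin E knock-in and those of wild type littermates. None of the 10 genes passed (limma, Benjamini-Hochberg over all 9388 genes, threshold 0.05); 0.0852% of all genes were called. At an unadjusted p under 0.05 the fit called 0 of the 10, against 8.65% of all genes. With the runs as a term that count was 3 of the 10 against 17% of all genes. With array weights it was also 3 of the 10, but the share of all genes at this threshold was not counted there, so that number has no baseline. The lowest adjusted p was that of Fth1 (limma adjusted p = 0.599). Of the 10 genes, 6 were higher and 4 lower in the knock-in mean, with a median log2 difference of 0.003, against -0.03 over all genes. The 3 largest positive differences belonged to Tfrc, Ftl1 and Fth1 and were each near 0.40.

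Tfrc encodes the transferrin receptor, whose protein was the CD71 of the sort. Cells of both genotypes were chosen by that protein, so the values describe Tfrc mRNA in cells already high in CD71. The effect of the sort on the comparison was not tested. Its log2 intensity in wild type was 12.65 in arrays 1 and 2, 12.02 in arrays 7 and 8, and 10.95 in arrays 9 and 10, and in knock-in 12.14 in arrays 3 and 4, 12.69 in arrays 5 and 6, and 11.99 in arrays 11 and 12. The wild type sample of arrays 9 and 10 was the lowest by far, and the other 5 samples overlapped between genotypes. On the deposited linear scale this probe read 1218 to 8798 intensity units over the 12 arrays. Within the order of samples, arrays 5 and 6 and arrays 1 and 2 could not be separated by more than the gap between duplicate arrays of this probe, which was at most 0.17. The same held for arrays 3 and 4, 7 and 8, and 11 and 12. The difference was 0.40 ± 0.43 (SE, n = 3 each, limma adjusted p = 0.94), which is 1.32-fold with a 95% interval of 0.644 to 2.72. The Tfrc difference moved widely with the setting: leaving out 1 sample gave -0.06 (wild type, arrays 9 and 10), 0.19 (knock-in, arrays 5 and 6) or 0.79 (wild type, arrays 1 and 2), and it was 0.05 with array weights and 0.71 with 75th percentile scaling, and none of these passed. The other Tfrc probe was also lowest in arrays 9 and 10, at 10.95, and highest in arrays 5 and 6, at 12.62, and its difference was 0.43.

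Tfrc was among the most variable genes of the table. Its SD over the 6 samples was 0.631, at the 97.9th percentile of all genes, and its SD of 0.859 among wild type samples at the 99.5th. Knock-in samples had an SD of 0.369. Such a spread was not particular to Tfrc. Among the other iron genes, Fech was at the 99.5th percentile over the 6 samples and Ncoa4 at the 98.9th. Others varied less, such as Alas2 at the 46.5th and Pcbp1 at the 19.0th. The offset compresses the spread of dim genes, so these percentiles partly reflect brightness.

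Tfr2 encodes the other transferrin receptor, which in erythroid cells associates with the erythropoietin receptor. In wild type its log2 intensity was 7.93, 7.57 and 8.04 (arrays 1 and 2, 7 and 8, 9 and 10), and in knock-in it was 7.34, 7.15 and 7.90 (arrays 3 and 4, 5 and 6, 11 and 12). The knock-in sample of arrays 11 and 12 lay among the wild type samples, and the other knock-in samples lay below all of them. Tfr2 differed by -0.38 ± 0.22 (SE, limma adjusted p = 0.765), 0.767-fold with an interval of 0.529 to 1.11. A dimmer Tfr2 probe, above the limit on 10 arrays, differed by -0.25 and was brightest in wild type arrays 9 and 10.

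**Figure D1:**
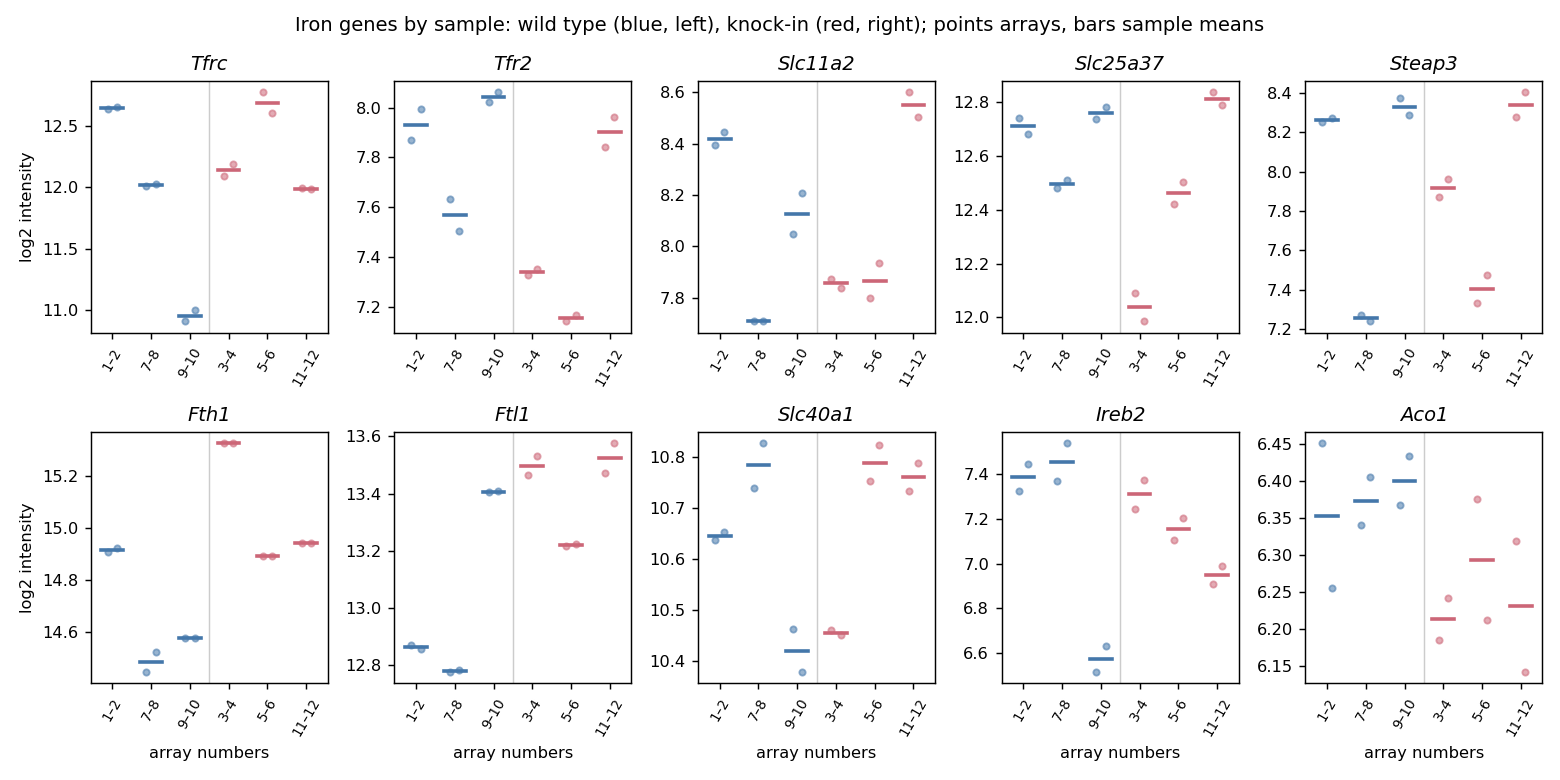
Log2 intensity of the 10 iron genes (vertical axes, separate scales) in 3 wild type samples (blue, left) and 3 knock-in samples (red, right), named by their array numbers. Points are single arrays and bars are sample means; Tfrc and Ireb2 are lowest in wild type arrays 9 and 10, and the genotypes are separated only for Aco1, on an expanded scale.

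Steap3 encodes the endosomal ferrireductase of erythroid cells, which reduces the iron released from transferrin. Its log2 intensity was 8.26, 7.26 and 8.33 in wild type and 7.92, 7.41 and 8.34 in knock-in samples, each in the order of array numbers. The lowest sample of each genotype was the one from arrays 5 to 8, and the genotypes overlapped. The difference was -0.06 ± 0.35 (SE, limma adjusted p = 0.997). These values rest on a probe assigned to a cDNA record; the probes assigned to the RefSeq mRNA of Steap3 were above the background limit on 4 and on 1 of 12 arrays, and a further cDNA probe was on 4.

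Slc11a2 encodes the divalent metal transporter that moves reduced iron from the endosome to the cytosol. Its log2 intensity was 8.42, 7.71 and 8.13 in wild type and 7.86, 7.87 and 8.55 in knock-in samples. Both genotypes spanned nearly the same range, and the difference was 0.01 ± 0.26 (SE, limma adjusted p = 0.999). The dimmer probes of Slc11a2 differed by 0.12 and 0.14.

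Slc25a37 encodes mitoferrin, which carries iron across the inner mitochondrial membrane of erythroid cells. In wild type its log2 intensity was 12.71, 12.50 and 12.76, and in knock-in it was 12.04, 12.46 and 12.81. Arrays 3 and 4 were the lowest and arrays 11 and 12 the highest, both of them knock-in. The difference was -0.22 ± 0.20 (SE, limma adjusted p = 0.928). Leaving out 1 knock-in sample gave -0.0175 (arrays 3 and 4) or -0.41 (arrays 11 and 12), and it was -0.49 with array weights and -0.0194 with 75th percentile scaling. The other Slc25a37 probe was above the limit on 0 of 12 arrays.

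Ferritin stores iron in a shell made of heavy subunits, which oxidise the iron, and light subunits, which help it to mineralise. The heavy subunit gene Fth1 had a log2 intensity of 14.91, 14.48 and 14.58 in wild type and of 15.33, 14.89 and 14.94 in knock-in samples. Wild type arrays 1 and 2 lay just above the lowest knock-in sample, and the other wild type samples lay below all knock-in samples. Fth1 differed by 0.40 ± 0.17 (SE, limma unadjusted p = 0.0542, limma adjusted p = 0.599), 1.32-fold with an interval of 0.993 to 1.74. The other Fth1 probe read 14.85, 14.63 and 14.64 in wild type and 14.87, 15.01 and 14.997 in knock-in samples, without overlap. Its difference was 0.25, with a limma adjusted p of 0.572 when every kept probe was tested by itself.

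Fth1 was at the top of the signal range, its probes ranking between 7 and 46 by brightness on the 12 arrays. At these ranks quantile normalization replaces a reading by the mean reading of its rank. With cyclic loess the Fth1 difference was 0.22, with 75th percentile scaling 0.41, and with array weights 0.52, with limma adjusted p of 0.86, 0.747 and 0.261. With 12 arrays counted as 12 samples it passed (limma adjusted p = 0.0469), a setting in which duplicates stand as replicates and 860 genes pass.

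The light subunit gene Ftl1 had a log2 intensity of 12.86, 12.78 and 13.41 in wild type and of 13.50, 13.22 and 13.52 in knock-in samples. Wild type arrays 9 and 10 lay among the knock-in samples, and the other wild type samples lay below them. Ftl1 differed by 0.40 ± 0.19 (SE, limma unadjusted p = 0.0777, limma adjusted p = 0.651), 1.32-fold with an interval of 0.96 to 1.80. Leaving out 1 wild type sample gave 0.59 (arrays 9 and 10) or 0.28 (arrays 7 and 8), and neither passed. The other Ftl1 probe was above the limit on 2 of 12 arrays. Ferritin genes have processed pseudogenes in the mouse, and whether these probes also read such copies was not tested.

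Macrophages also express ferritin, ferroportin and heme oxygenase. Of the macrophage markers, 12 of 12 had a lower mean in the knock-in samples, as had 5485 of 9388 genes in all, and 0 were called. Their summed intensity was 2747 to 6221 in wild type and 2157 to 4255 in knock-in samples. None of the macrophage markers that were measured was below the limit on all arrays. The part of macrophages in the ferritin values was not tested, nor was that of neutrophils or other marrow cells.

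Slc40a1 encodes ferroportin, the iron exporter. Its log2 intensity was 10.65, 10.78 and 10.42 in wild type and 10.46, 10.79 and 10.76 in knock-in samples. The ranges of the genotypes were almost the same. The difference was 0.05 ± 0.14 (SE, limma adjusted p = 0.986), 1.04-fold with an interval of 0.818 to 1.31. With 75th percentile scaling it was 0.34. A dim cDNA probe of Slc40a1 was above the limit on 0 of 12 arrays.

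Ireb2 encodes the iron regulatory protein that is degraded when iron is plentiful. Its log2 intensity was 7.38, 7.45 and 6.57 in wild type and 7.31, 7.15 and 6.95 in knock-in samples. As for Tfrc, wild type arrays 9 and 10 were the lowest. The difference was 0.00 ± 0.25 (SE, limma adjusted p = 1.00), and it was -0.28 without arrays 9 and 10. A dimmer Ireb2 probe, also lowest in arrays 9 and 10, differed by 0.08.

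Aco1 encodes the cytosolic aconitase that acts as the other iron regulatory protein when it lacks its iron-sulfur cluster. Its log2 intensity was 6.35, 6.37 and 6.40 in wild type and 6.21, 6.29 and 6.23 in knock-in samples. All knock-in samples lay below all wild type samples, which was the case for 1 of the 10 genes and, in either direction, for 13.7% of all genes. Aco1 differed by -0.13 ± 0.08 (SE, limma adjusted p = 0.79), 0.914-fold with an interval of 0.797 to 1.05. Without background correction it was -0.30. The probe was dim, at 7.4 to 29.7 intensity units, and duplicate arrays differed by up to 0.195, more than the genotypes did.

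**Figure D2:**
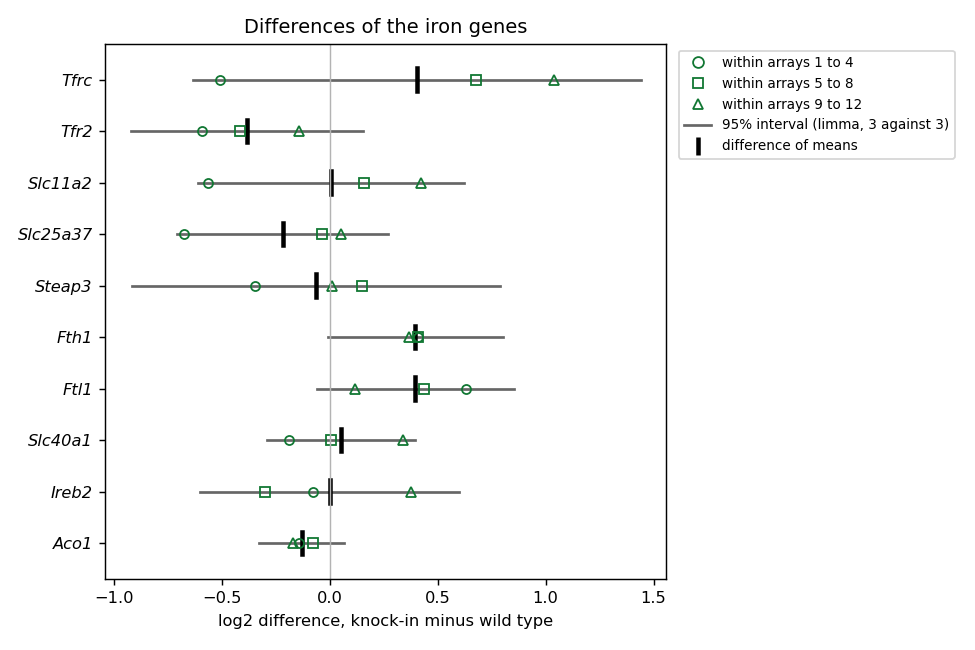
Log2 difference of each iron gene, knock-in minus wild type (horizontal axis). Black bars are differences of means of 3 samples each, grey lines 95% intervals from limma, and green symbols the differences within arrays 1 to 4, 5 to 8 and 9 to 12; all intervals include 0, and the green symbols of Tfrc span -0.51 to 1.04 while those of Fth1 lie between 0.37 and 0.41.

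The arrays fall into 3 runs of 4 adjacent numbers, each with 1 sample of each genotype. The labels do not name these runs as a batch, day or litter. Over the 6 samples the runs carried a median of 51.0% of the sum of squares of the 10 genes and genotype 14.7%, against 56.2% and 13.3% over all genes. The runs divide the samples into more groups than genotype does and would take a larger share even without an effect. Their share is thus not directly comparable with that of genotype. The runs carried 93.9% for Steap3 and 78.4% for Ireb2. Genotype carried 84.3% for Aco1, 52.2% for Fth1 and 45.1% for Ftl1.

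Within the runs, Tfrc differed by -0.51 in arrays 1 to 4, by 0.68 in arrays 5 to 8 and by 1.04 in arrays 9 to 12. Its sign thus depended on the run. Fth1 differed by 0.41, 0.41 and 0.37, whereas its other probe differed by 0.02, 0.38 and 0.36. The probes of Fth1 thus agree in arrays 5 to 12 and not in arrays 1 to 4. Ftl1 differed by 0.63, 0.44 and 0.12. Tfr2 differed by -0.59, -0.41 and -0.14, and Aco1 by -0.14, -0.08 and -0.17. Higher in knock-in within all 3 runs were 2 of the 10 genes and 16.3% of all genes; lower within all 3 were 2 of the 10 and 23.5% of all genes.

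With the runs as a term in the fit, 0 of the 10 genes passed and 0.937% of all genes did. Of the 40 other iron genes described next, 0 passed and 9 had an unadjusted limma p under 0.05, against 17% of all genes. Among the 10 genes the lowest adjusted p were those of Fth1 (limma adjusted p = 0.094), Tfr2 (0.185) and Ftl1 (0.199).

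**Figure D3:**
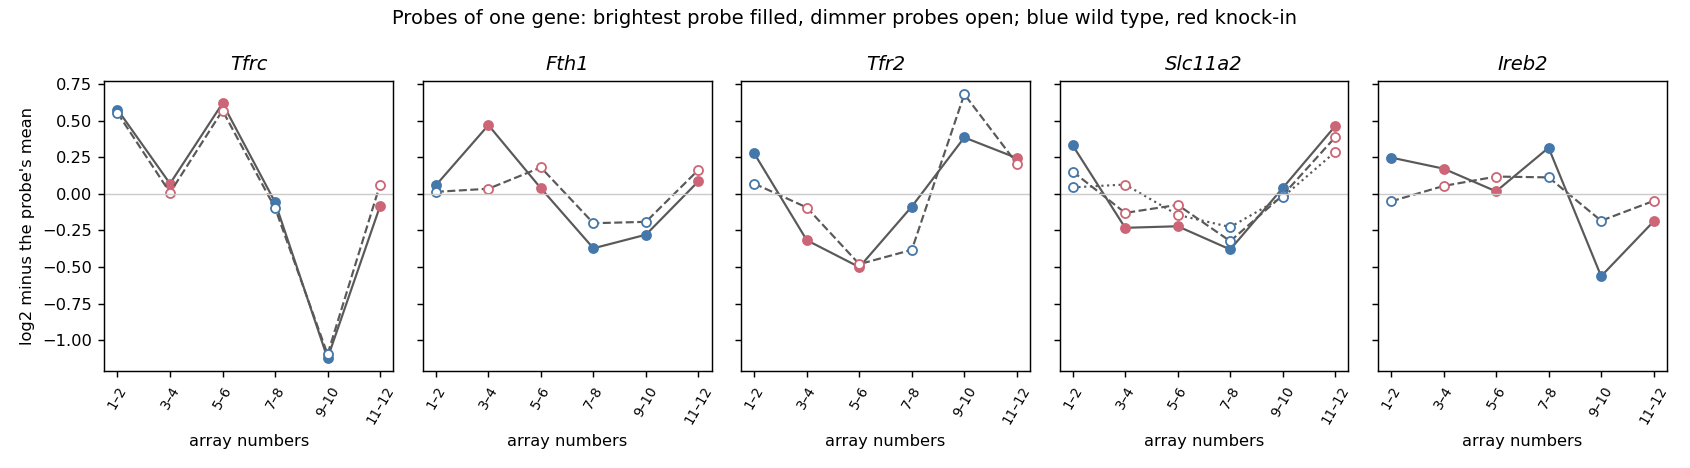
Log2 intensity minus the probe's mean over 6 samples (vertical axis) for genes with more than 1 kept probe, by sample in the order of array numbers; blue is wild type and red knock-in, filled points are the brightest probe and open points dimmer ones. The Tfrc probes follow each other closely, while the Fth1 probes part at arrays 3 and 4, where the brightest reads 15.33 and the other 14.87.

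Of 66 other genes of iron handling in 6 lists, 60 were named on the array and 40 were tested. Of these, 0 were called higher and 0 lower, 0 had an unadjusted limma p under 0.05 (8.65% of all genes). The smallest adjusted p among them was 0.638. Their median log2 difference was -0.02, with 18 higher and 22 lower. The genotypes did not overlap for 2 of the 40, Alas2 and Heph, a copper ferroxidase whose name was added after its values were seen. That is 5% of them, against 13.7% of all genes. Heph was dim, above the limit on 8 of 12 arrays, and differed by -0.04. Alas2, at 14.89 to 15.37, lay as high in the signal range as Fth1.

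The 8 smallest p-values belonged to genes of several steps. Nfs1, the cysteine desulfurase of iron-sulfur cluster assembly, differed by -0.41 ± 0.18 (SE, limma adjusted p = 0.638), and Hscb, a co-chaperone of the same pathway, by 0.22. Erfe, the erythroid hormone that lowers hepcidin, differed by 0.41 ± 0.18 (SE, limma adjusted p = 0.64). Its log2 intensity was 6.77, 6.39 and 6.67 in wild type and 6.95, 6.75 and 7.36 in knock-in samples, so that the groups overlapped by 1 sample from each side. Alas2, the first enzyme of erythroid heme synthesis, whose mRNA carries an iron-responsive element, differed by -0.23 ± 0.12. It read 15.08, 15.01 and 15.37 in wild type and 14.96, 14.92 and 14.89 in knock-in samples. Hmox2, the constitutive heme oxygenase, differed by -0.24 and Ppox, an enzyme of heme synthesis, by 0.27. Trf, transferrin itself, differed by -0.43 and was highest in wild type arrays 9 and 10, at 9.07. Bola3, an iron-sulfur cluster assembly factor, differed by -0.39.

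By list, 6 of 19 genes of surface uptake and plasma regulation were tested, with a median log2 difference of -0.03. Dim on this array were Hamp, which encodes hepcidin, the reductases Cybrd1, Steap1, Steap2 and Steap4, and the zinc and iron transporters Slc39a8 and Slc39a14. Genes of endosomal traffic, iron chaperones and ferritin turnover had a median of 0.01 over 7 genes. Among them Ncoa4, the receptor for ferritin autophagy, spanned 7.40 to 9.22 within wild type. Mitochondrial iron and iron-sulfur genes had a median of -0.07 over 13, heme synthesis 0.08 over 7, and heme transport and breakdown -0.12 over 6. No gene in any of the 6 lists passed the test.

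**Figure D4:**
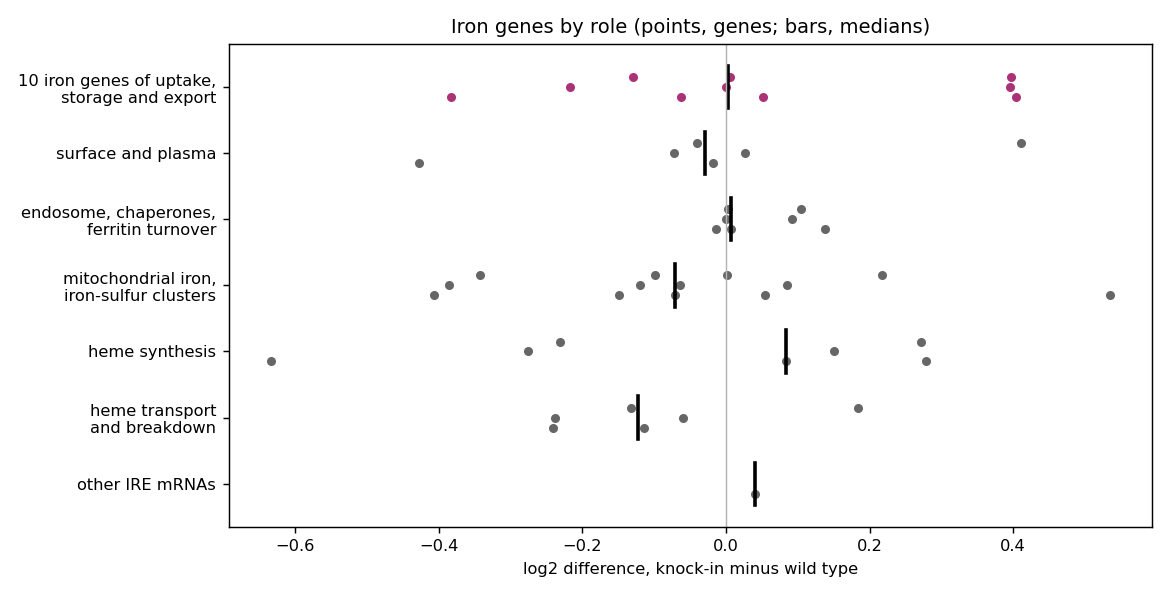
Log2 difference, knock-in minus wild type (horizontal axis), of the 10 iron genes (purple) and of 40 other tested iron genes (grey) in 6 lists by role; bars are medians. Points lie on both sides of 0 in each list with more than 1 gene, and the medians lie between -0.12 and 0.08.

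The wild type sample of arrays 9 and 10, with the lowest Tfrc and Ireb2, held the highest log2 intensity of several other iron genes. Among the 6 samples it was highest for Fech, which inserts iron into heme, at 12.20, for Ncoa4 at 9.22, for Trf at 9.07, for Hmox1, the inducible heme oxygenase, at 9.20, and for Slc48a1, a heme transporter, at 11.44. These genes, apart from Trf, were named after their values were seen. Knock-in arrays 11 and 12 of the same run read 11.35, 8.95, 8.38, 8.97 and 11.02. Further iron genes were instead lowest in arrays 9 and 10 among the 6 samples. They included Flvcr1 of heme transport at 7.46, Hspa9 of the mitochondrial list at 9.38, Pcbp2 at 11.66 and Exoc6 at 7.44. These too were named after their values were seen, and the share of all genes highest or lowest there was not counted. The macrophage marker mean was also highest in arrays 9 and 10, at 8.52, and its part in these values was not tested.

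The genes whose log2 values followed Tfrc most closely over the 6 samples, among all genes tested, were Btaf1, a regulator of the TATA-binding protein (Pearson r = 0.99 over 6 samples), Eif2s2, a subunit of the initiation factor that delivers the first tRNA, Wnk1, a kinase of ion transport, Ipmk, an inositol phosphate kinase, and Kpnb1, an importin. Each was lowest in arrays 9 and 10. Those most like Fth1 were Hmgb2, a chromatin protein, Hspa5, a chaperone of the endoplasmic reticulum, Nfe2l2, which encodes Nrf2, Rtf1, an elongation factor, and Prr11, a cell cycle protein. Their r ranged from 0.966 to 0.976, and each was highest in arrays 3 and 4. That likeness is to the brightest Fth1 probe. The other Fth1 probe was not highest there, at 14.87 against 15.01 in arrays 5 and 6. With 9388 genes and 6 samples that share runs, such values are a description only.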

How the data were processed

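Total RNA was extracted with Trizol and RNeasy columns and labelled as biotinylated cRNA, per the labels' protocols. The submitters' processing notes list GenomeStudio, without a version. The authors deposited intensity values of 12 arrays without normalization between arrays, per the file's name, and with background already subtracted, as 33.05% to 37.02% of values per array lie below 0. Their second deposited table, of processed intensity on a linear scale with 1 distribution for all arrays, served only as an alternative; the labels and headers do not name its scaling.

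The normexp correction of limma (offset 50) was applied, and values were quantile-normalized and taken to log2, so folds of dim genes are understated. The background limit per array was the 90th percentile of the sizes of its negative values (6.6 to 7.7). Kept were 16894 probes above it on at least 6 arrays. The platform annotation gave 34885 probes 1 symbol, 18 several and 10378 none. A gene stood by its brightest kept probe. Duplicate arrays were averaged and 3 samples compared with 3 by limma 3.58.1 (R 4.3.3), with Benjamini-Hochberg adjustment. The procedure was tested on simulated data. The number of arrays limits the precision. No probe coordinates are printed, since no source used here names the array's build.

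All 10 iron genes are named whatever their result, with the 8 other iron genes of smallest p and the 5 genes most like Tfrc and like Fth1. The cell type marker lists for early and late erythroid stages, megakaryocytes, mast cells with basophils and eosinophils, and T and NK cells had median log2 differences of -0.09, -0.01, 0.002, -0.54 and -0.17, and 0 genes of any list were called without the runs as a term. The late erythroid median covers members in both directions, from -0.69 for Alox15 to 0.85 for Bpgm, so it says nothing of stage. Of that list 5 of 9 had an unadjusted limma p under 0.05, against 8.65% of all genes. Members and lists were chosen with earlier results of these data known. Alternatives were other background corrections, scalings, filters, probe summaries, replicate units and weights. Figures were drawn with matplotlib 3.10.9.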

Additional observations from a re-analysis of the deposited data

How the results depend on the processing

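The number of iron genes called stayed at 0 under each alternative tried except with 12 arrays counted as 12 samples, where it was 1, Fth1 (log2 difference 0.40). The other iron genes called stayed at 0 under all of them. Over all genes, 8 as reported became 19 without background correction, 17 with the authors' processed values, 860 with 12 arrays as samples, 283 with duplicate arrays as a random block, 88 with the runs of 4 arrays as a term, 16 with eBayes trend and robust, and 44 with array weights; with 1 of the 6 samples left out it was 0 to 6. The cause of these shifts was not tested. With 12 arrays as samples, duplicates stand as replicates. Small differences turned sign: Ireb2 was -0.0226 with cyclic loess, Steap3 0.0665 with 75th percentile scaling, and Slc11a2 and Slc40a1 -0.21 and -0.12 with array weights. With each sample left out in turn, differences ranged from -0.0580 to 0.79 for Tfrc, -0.41 to 0.18 for Steap3, -0.22 to 0.17 for Slc11a2, -0.0459 to 0.16 for Slc40a1, -0.28 to 0.16 for Ireb2, 0.26 to 0.52 for Fth1, 0.28 to 0.59 for Ftl1 and -0.60 to -0.23 for Tfr2, -0.41 to -0.0175 for Slc25a37 and -0.15 to -0.11 for Aco1. The labels share no replicate number between the genotypes, so samples were paired only by the runs of 4 arrays, which the labels do not name. Aco1 and the dimmer probes of Tfr2, Slc11a2 and Ireb2 lie close to background, where the offset compresses differences.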
